A study of Mus musculus with 12 samples.

Results

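The granule docking and exocytosis machinery of the beta cell was examined as 46 genes whose products tether insulin granules at the plasma membrane, prime them and fuse them with it, out of 54022 genes in the deposited tables. The members were chosen by known function, with earlier results of these data known. They were sorted into 10 roles: plasma membrane syntaxins, the SNAP-25 family, vesicle SNAREs, Sec1/Munc18 proteins and tomosyn, priming and docking factors, Rab GTPases, Rab effectors, calcium sensors and complexins, SNARE disassembly factors, and active zone scaffolds. All 46 were listed once in the tables, and 41 had enough counts to be tested.

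The RNA came from MIN6 cells, a mouse insulinoma line labelled as wild type that secretes insulin in response to glucose. Cells received vehicle or 100 nM trimethylamine N-oxide (TMAO, a product of gut microbial and hepatic metabolism of choline and carnitine) for 18 h, and were then placed in low (2.8 mM) or high (16.8 mM) glucose. The 4 conditions, low glucose with vehicle, low glucose with TMAO, high glucose with vehicle and high glucose with TMAO, had 3 libraries each, which the submitters describe as biological replicates. All 12 libraries came from the same line, a tumour-derived model that differs from the islet in its cellular setting, and the comparisons asked how the transcripts of the secretory machinery differed with glucose, with TMAO and with their combination.

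In beta cells, insulin granules carry VAMP proteins that pair with syntaxin and SNAP-25 proteins of the plasma membrane, and the resulting SNARE complex drives membrane fusion. Rab27 and Rab3 GTPases and their effectors bring granules to the membrane, Munc18, Munc13, RIM and CAPS proteins prepare the SNAREs, and synaptotagmins couple fusion to the rise in calcium that follows glucose metabolism. NSF and SNAP adaptor proteins then take spent SNARE complexes apart for reuse.

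Total counts per library lay between 16793162 and 22340542. The beta cell genes Ins2, Ins1 and Iapp had mean levels of 25489, 4666 and 12107 FPKM (fragments scaled to gene length and to the library's total, so that genes can be compared), whereas the exocrine pancreas list, 5 genes, summed to at most 0.0310 FPKM in any library and Ptprc, which marks blood cells, was listed at 0 throughout. The glucagon gene Gcg was present at 200 to 227 FPKM. In bulk RNA, fewer cells of a type and less RNA per cell cannot be told apart.

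The 5 members that passed the test in any comparison were Exph5, Syt4, Syt5, Stx4a and Rab3d, all of them between high and low glucose. Promoter sequence was held for 36 of the 46 members in the RefSeq table (build GRCm38.p6). Windows are printed for 3 of the 5 members that passed, and those of Syt4 and Syt5 are left out. The 250 bases before the RefSeq start of Exph5, Stx4a and Rab3d are shown because these genes differed between glucose levels, with letters in capitals where a window held, on either strand, the cyclic AMP response element half-site TGACG or the GC box GGGCGG.
Exph5, chr9:53301420-53301669, plus strand: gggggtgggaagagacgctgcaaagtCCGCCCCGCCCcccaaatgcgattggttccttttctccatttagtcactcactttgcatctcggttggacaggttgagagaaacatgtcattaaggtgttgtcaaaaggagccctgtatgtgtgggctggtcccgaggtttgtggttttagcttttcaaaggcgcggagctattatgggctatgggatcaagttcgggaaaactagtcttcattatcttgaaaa
Stx4a, chr7:127841558-127841807, plus strand: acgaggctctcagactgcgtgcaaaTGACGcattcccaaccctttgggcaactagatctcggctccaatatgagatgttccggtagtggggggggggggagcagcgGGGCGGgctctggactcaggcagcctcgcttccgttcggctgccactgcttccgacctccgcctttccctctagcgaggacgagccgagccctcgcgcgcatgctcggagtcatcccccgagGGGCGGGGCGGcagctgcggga
Rab3d, chr9:21918184-21918433, minus strand: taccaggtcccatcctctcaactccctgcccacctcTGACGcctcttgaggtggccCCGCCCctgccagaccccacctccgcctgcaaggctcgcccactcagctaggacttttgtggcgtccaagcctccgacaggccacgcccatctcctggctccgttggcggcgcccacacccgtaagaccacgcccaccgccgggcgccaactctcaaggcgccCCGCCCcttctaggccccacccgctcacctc
The Exph5 window held 2 GC boxes, which overlap in sequence, and no half-site. The Stx4a window held 1 half-site and 3 GC boxes, 2 of them overlapping, and lies inside the interval that the tables give for Stx4a. The Rab3d window held 1 half-site and 2 GC boxes. Over all 32851 promoters of the table, 17.8% held the half-site and 32.7% a GC box, against 10 and 24 of the 36 members (27.8% and 66.7%). The full element TGACGTCA, which contains the half-site, was in the windows of 1 member (2.78%, against 1.55% of all promoters), the E-box CACGTG in those of 6 (16.7% against 6.02%) and the AP-1 site TGANTCA in none (0% against 6.75%). A member was counted if any of its windows held the motif, whereas the share over all promoters is per window and not limited to tested genes. The shares are therefore not like for like. These are letter matches in the windows and were not tested for use.

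Levels differed widely between members of a role. Of the 46 members, 39 had a mean level of at least 1 FPKM and 24 of at least 10 FPKM, and Syt13 alone exceeded 100 FPKM. The median member stood at 10.9 FPKM, and the members together took between 0.571% and 0.589% of all counts in every library. Their summed level ran from 1147 to 1204 FPKM over the 12 libraries.

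**Figure D1:**
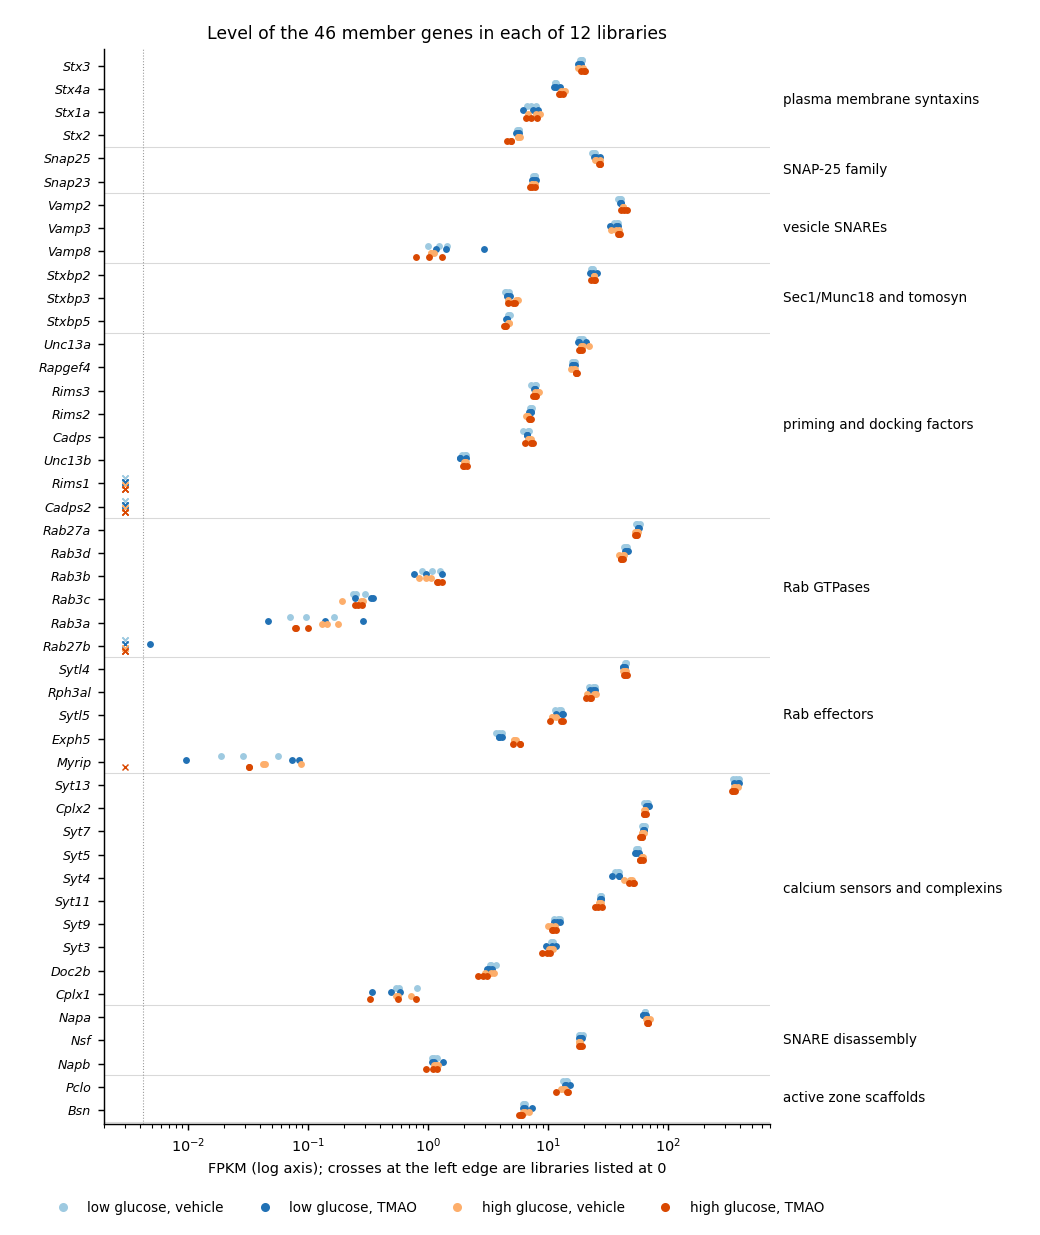
FPKM of the 46 members (log axis) in each of the 12 libraries, 1 point per library coloured by condition, sorted by role and by mean level, with crosses for libraries listed at 0. Syt13 lies furthest to the right at 342 to 386 FPKM, Rims1 and Cadps2 are at 0 in all 12 libraries, and a single library of Vamp8 sits apart at 2.93 FPKM.

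Among the plasma membrane syntaxins, which form the target-membrane side of the SNARE complex, mean levels fell in the order Stx3 (18.9 FPKM), Stx4a (12.4), Stx1a (7.41) and Stx2 (5.44). Each was above the next in every library, with smallest ratios of 1.31, 1.49 and 1.15. Stx3 was at 19.3, 18.4 and 19.2 FPKM in low glucose with vehicle, 18.8, 18.4 and 17.7 in low glucose with TMAO, 18.2, 19.4 and 17.8 in high glucose with vehicle, and 20.1, 19.0 and 20.5 in high glucose with TMAO. The conditions overlapped except that all 3 high-glucose TMAO libraries lay above the low-glucose TMAO libraries.

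Snap25, the partner that contributes to the same complex from the inner face of the membrane, was the more abundant of its family, with 25.5 FPKM against 7.53 for Snap23, a ratio of 3.38. Its libraries read 23.4, 24.6 and 24 FPKM in low glucose with vehicle, 24.3, 26.9 and 24.9 in low glucose with TMAO, 24.5, 26.9 and 25.3 in high glucose with vehicle, and 27.1, 27.3 and 26.6 in high glucose with TMAO. The libraries of high glucose with TMAO lay above those of low glucose with vehicle, and the other pairs of conditions overlapped. Of the granule SNAREs, Vamp2, the main granule VAMP of beta cells, was at 41.2 FPKM, Vamp3 at 37.2 and Vamp8 at 1.29. Vamp2 was above Vamp3 in every library, though by as little as 1.02 times. Vamp2 measured 37.9, 39.8 and 40.5 FPKM in low glucose with vehicle, 40.5, 40.5 and 39.7 in low glucose with TMAO, 42, 42.1 and 41.9 in high glucose with vehicle, and 45.7, 43.3 and 40.4 in high glucose with TMAO. Among these, 1 high-glucose TMAO library fell within the low-glucose range.

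Stxbp2, also called Munc18b, binds syntaxins and guides SNARE assembly, and at 23.7 FPKM it was 4.89 times as abundant as its relative Stxbp3 (4.86 FPKM). The tomosyn gene Stxbp5, whose product inhibits fusion by occupying syntaxin and SNAP-25, was at 4.57 FPKM. Stxbp2 read 22.6, 23.2 and 23.6 FPKM in low glucose with vehicle, 22.4, 23.6 and 25.7 in low glucose with TMAO, 23.9, 23.9 and 24.3 in high glucose with vehicle, and 24.3, 24.7 and 22.6 in high glucose with TMAO. In vehicle the high-glucose libraries lay just above the low-glucose ones, and the TMAO libraries overlapped both.

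Among the priming and docking factors, Unc13a (Munc13-1, which opens syntaxin for SNARE assembly) was at 19.1 FPKM and Unc13b at 2.0, a ratio of 9.56. Rapgef4, which encodes the cyclic AMP sensor Epac2, followed at 16.4 FPKM. Rims3 (7.81 FPKM), Rims2 (7.02) and Cadps (6.83), encoding RIM scaffolds and the priming factor CAPS1, were close to each other, whereas Rims1 and Cadps2 had 0 counts in all 12 libraries. A count of 0 allows up to 3 counts, or 1.79e-05% of the smallest library, for counting error only. Unc13a was at 18.0, 19.5 and 18.8 FPKM in low glucose with vehicle, 18.1, 17.9 and 20.6 in low glucose with TMAO, 21.8, 18.7 and 19.6 in high glucose with vehicle, and 18.3, 19.3 and 18.4 in high glucose with TMAO. The 4 conditions overlapped. Unc13a shares 3.92% of its exon bases with Colgalt1 on the opposite strand, and whether strand was used in counting is not given in the sources used here.

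Among the Rab GTPases, Rab27a, which recruits effectors to granules, was at 55.2 FPKM and Rab3d at 42.9, while Rab3b stood at 1.07, Rab3c at 0.272 and Rab3a at 0.126 FPKM. Rab3a, the form usually named for neurons and islets, had between 2 and 12 counts per library, and Rab27b had a single count in 1 library. Rab27a measured 58.1, 54.7 and 54.4 FPKM in low glucose with vehicle, 57.7, 56.3 and 55.8 in low glucose with TMAO, 52.6, 55.6 and 55.4 in high glucose with vehicle, and 52.8, 54.5 and 54.9 in high glucose with TMAO. In TMAO all 3 high-glucose libraries lay below the low-glucose ones, and in vehicle the ranges overlapped.

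Of the Rab effectors, Sytl4 (granuphilin, which docks granules by binding Rab27a and syntaxin) led with 43.6 FPKM, followed by Rph3al (Noc2) at 23.1, Sytl5 at 12.1 and Exph5 at 4.68, and Myrip had 0 to 9 counts. Sytl4 was at 44.9, 43.4 and 44.6 FPKM in low glucose with vehicle, 42.3, 43.8 and 42.3 in low glucose with TMAO, 41.9, 44.2 and 43.8 in high glucose with vehicle, and 42.8, 43.9 and 45.3 in high glucose with TMAO. These libraries spanned a range of 41.9 to 45.3 FPKM with no order by condition.

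The calcium sensors held the most abundant member. Syt13, an atypical synaptotagmin that does not bind calcium, was at 364 FPKM, 5.94 times the level of Syt7 (61.2 FPKM), a high-affinity sensor. Syt7 and Syt5 (57.7 FPKM) were not separated, with a ratio of 0.977 to 1.17 over the libraries, and Syt4 (43.1), Syt11 (26.9), Syt9 (11.4), Syt3 (10.4) and the sensor Doc2b (3.21) followed. The complexins, which clamp and assist the assembled SNAREs, were represented by Cplx2 at 65.1 FPKM and Cplx1 at 0.570. Syt13 measured 386, 368 and 349 FPKM in low glucose with vehicle, 386, 356 and 379 in low glucose with TMAO, 382, 353 and 359 in high glucose with vehicle, and 346, 358 and 342 in high glucose with TMAO. The values in high glucose with TMAO were at the low end and overlapped those of the other conditions.

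Napa (alpha-SNAP), the adaptor that loads NSF onto used SNARE complexes, was at 65.5 FPKM, Nsf itself at 18.6 and Napb at 1.14. Napa read 63.7, 63.8 and 63.6 FPKM in low glucose with vehicle, 61.5, 61.8 and 66.0 in low glucose with TMAO, 70.7, 66.2 and 65.4 in high glucose with vehicle, and 68.2, 67.7 and 67.0 in high glucose with TMAO. A single low-glucose library lay within the high-glucose range. Of the active zone scaffolds, large proteins that organise release sites, Pclo was at 13.8 FPKM and Bsn at 6.34. Pclo was at 13.4, 14.1 and 14.4 FPKM in low glucose with vehicle, 13.7, 15.1 and 14 in low glucose with TMAO, 12.8, 14 and 13.6 in high glucose with vehicle, and 11.6, 14.3 and 14.6 in high glucose with TMAO, without separation of the conditions.

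The first comparison asked which members differed between high and low glucose with both treatments averaged. Exph5, Syt4, Syt5 and Stx4a rose, and Rab3d fell. With 5 of 41 tested members called (12.2%) by the quasi-likelihood test of edgeR, adjusted by the Benjamini-Hochberg method over 16222 genes, the share may be read against 8.19% of all tested genes. Of all genes, 4.13% were called higher and 4.06% lower. The median log2 fold change over the 41 members was -0.02, with 20 above 0, against 0.00 over all genes. A further 8 members had an unadjusted p under 0.05 without passing, 13 in all (31.7%, against 20.1% of all tested genes). Leaving out 1 library at a time gave between 3 and 7 called members (7.32% to 17.1%), while 5.93% to 8.75% of all genes were called in the same fits, with 3 members (Exph5, Syt4 and Syt5) without replicate 1 or 2 of low glucose with vehicle or replicate 1 of low glucose with TMAO.

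Exph5, a Rab27 effector of the Slac2 group that lacks the membrane-binding C2 domains of the Sytl proteins, had the largest rise. The gene lies at chr9:53301670-53377514 (mm10, as the tables give it). Its libraries were at 3.88, 4.10 and 3.65 FPKM in low glucose with vehicle, 3.93, 4.15 and 3.91 in low glucose with TMAO, 5.15, 5.37 and 5.19 in high glucose with vehicle, and 5.13, 5.88 and 5.83 in high glucose with TMAO. All 6 high-glucose libraries lay above all 6 low-glucose libraries. The log2 fold change was 0.47 (SE 0.04), a 1.38-fold higher level with a 95% interval of 1.30 to 1.47 (adjusted p = 2.54e-09, edgeR), which ranked 79th of all genes by p-value.

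Syt4, an atypical synaptotagmin whose first C2 domain does not bind calcium in the usual way, was the next. It measured 39.1, 38.0 and 36.0 FPKM in low glucose with vehicle, 38.8, 39.1 and 34.3 in low glucose with TMAO, 43.0, 48.4 and 50.3 in high glucose with vehicle, and 47.0, 50.5 and 52.3 in high glucose with TMAO. Again no high-glucose library fell within the low-glucose range. Syt4 was 1.30-fold higher in high glucose (log2 fold change 0.37, SE 0.04, 95% interval 1.22 to 1.37-fold, adjusted p = 2.93e-07, edgeR). The antisense gene Gm26658 covers 14.5% of its exon bases and had 8.25 counts on average, against 3176 for Syt4.

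Syt5, a calcium-binding synaptotagmin of secretory granules, rose by a smaller amount (chr7:4539765-4547541). Its values were 56.6, 56.0 and 53.9 FPKM in low glucose with vehicle, 57.1, 54.2 and 53.4 in low glucose with TMAO, 60.9, 61.6 and 60.5 in high glucose with vehicle, and 61.2, 58.6 and 58.6 in high glucose with TMAO. The ranges did not overlap, although the highest low-glucose library came close to the lowest high-glucose one. The difference was 1.09-fold (log2 fold change 0.13, SE 0.03, adjusted p = 0.00925, edgeR). Exph5, Syt4 and Syt5 were the only tested members whose 6 high-glucose libraries did not overlap the 6 low-glucose ones, 7.32% of members against 5.01% of all tested genes.

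Stx4a, a plasma membrane syntaxin used for sustained insulin release (chr7:127824294-127849019), was at 11.4, 11.4 and 11.7 FPKM in low glucose with vehicle, 11.3, 11.7 and 12.6 in low glucose with TMAO, 13.8, 12.7 and 13.4 in high glucose with vehicle, and 12.5, 13.2 and 12.4 in high glucose with TMAO. The vehicle libraries separated by glucose, while 1 low-glucose TMAO library lay within the high-glucose TMAO range. The log2 fold change was 0.16 (SE 0.05, adjusted p = 0.0342, edgeR), 1.12-fold. The call was lost in 9 of 19 alternatives (adjusted p from 0.0562 to 0.109): with DESeq2 (0.0618), with no filter on low counts (0.0694), and without replicate 1 or 2 of low glucose with vehicle or of low glucose with TMAO, replicate 1 or 3 of high glucose with vehicle, or replicate 2 of high glucose with TMAO.

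Rab3d, the predominant Rab3 form in these cells and a granule GTPase first known from exocrine glands (chr9:21907491-21918192), was the only called member to fall. It read 45.3, 44.5 and 42.6 FPKM in low glucose with vehicle, 46.4, 43.8 and 44.4 in low glucose with TMAO, 42.8, 39.0 and 42.3 in high glucose with vehicle, and 42.1, 40.8 and 40.2 in high glucose with TMAO. The ranges touched, with 1 high-glucose library above the lowest low-glucose library. It fell by 0.11 on the log2 scale (SE 0.03, adjusted p = 0.0329, edgeR), and the call was lost in 8 of 19 alternatives (adjusted p from 0.0564 to 0.125): in both limma fits (0.0567 and 0.0564), and without replicate 1 or 2 of low glucose with vehicle, replicate 1 of low glucose with TMAO, replicate 2 of high glucose with vehicle, or replicate 2 or 3 of high glucose with TMAO.

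**Figure D2:**
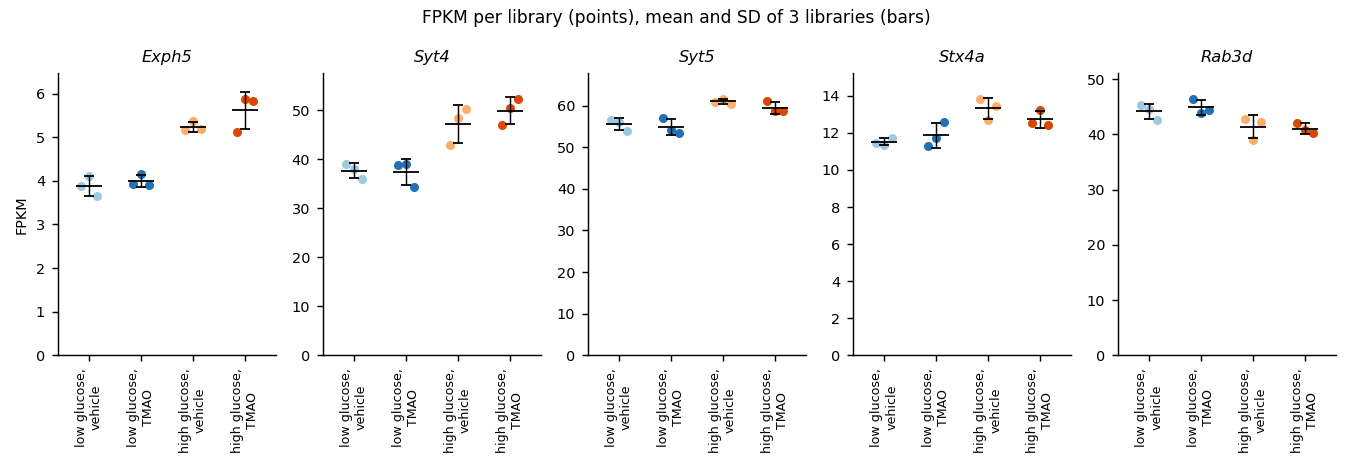
FPKM of the 5 called members in each library (points) by condition, with the mean and SD of 3 libraries (bars) and the vertical axis from 0. Exph5, Syt4 and Syt5 show high-glucose libraries wholly above the low-glucose ones, at 5.13 to 5.88 against 3.65 to 4.15 FPKM for Exph5, whereas Stx4a and Rab3d overlap.

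None of the 10 most abundant members of their roles passed. Vamp2 (log2 fold change 0.10, adjusted p = 0.0667, edgeR), Napa (0.09, adjusted p = 0.0608) and Snap25 (0.09, adjusted p = 0.0930) had the lowest adjusted p-values of the 10. Napa and Snap25 passed in 3 of 19 alternatives each and Vamp2 in 2, among them Napa with DESeq2 (adjusted p = 0.0432) and without replicate 3 of low glucose with TMAO (0.0202), Snap25 without replicate 2 of low glucose with TMAO (0.0310) or replicate 1 of high glucose with vehicle (0.0450), and Vamp2 without replicate 3 of high glucose with TMAO (0.0262). Stx3 (0.04), Stxbp2 (0.03), Unc13a (0.04) and Sytl4 (0.00, 95% interval -0.06 to 0.07) had adjusted p-values from 0.597 to 0.964 by edgeR. Rab27a (-0.05), Syt13 (-0.05) and Pclo (-0.07) lay on the other side of 0 with adjusted p-values from 0.348 to 0.530. For 35 of the 41 members, the 95% interval lay within a 1.25-fold change either way.

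By role, in the main edgeR fit, 1 of 4 syntaxins, 1 of 4 tested Rab effectors and 2 of 10 calcium sensors and complexins were called higher. In that fit 1 of 4 tested Rab GTPases was called lower, and no member of the other 6 roles passed. Of those roles, Napa, Snap25 and Vamp2 passed in some alternatives. Over all tested genes 4.13% were called higher and 4.06% lower, and with 2 to 10 tested members a role, a single call is a large share of it. Among the calcium sensors and complexins 7 of 10 had log2 fold changes below 0 (median -0.05), on the other side of 0 from Syt4 and Syt5. Of the 6 tested priming and docking factors 5 lay above 0 (median 0.04, largest 0.08). Over all tested genes 50.4% lay above 0. The variation between replicate libraries, as a biological coefficient of variation, had a median of 4.60% over the members and 5.98% over all tested genes.

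Within each treatment Exph5 and Syt4 were the members called. In vehicle, 2 of 41 members (4.88%) were called, against 3.30% of all genes. Exph5 was higher by 0.44 on the log2 scale (SE 0.06, adjusted p = 1.52e-05, edgeR) and Syt4 by 0.33 (SE 0.06, adjusted p = 0.000819). The next by p-value was Stx4a (0.21, adjusted p = 0.0859), which did not pass, and neither did Syt5 (0.14) or Rab3d (-0.09).

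In TMAO-treated cells, again 2 of 41 (4.88%) were called, against 3.64% of all genes. Exph5 was higher by 0.49 (SE 0.06, adjusted p = 1.50e-06, edgeR) and Syt4 by 0.42 (SE 0.06, adjusted p = 2.39e-05). Stx2 came next (-0.21, adjusted p = 0.0911) and did not pass. Stx4a (0.10), Syt5 (0.12) and Rab3d (-0.13) kept the sign they had in vehicle. Across the 41 members, 26 (63.4%) had the same sign in both treatments, as did 63.3% of all tested genes. Pearson's r between the sets of log2 fold changes, which come from different libraries, was 0.57 over members, 0.33 without Exph5 and Syt4, and 0.45 over all genes. These values are across genes, which are not independent replicates.

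**Figure D3:**
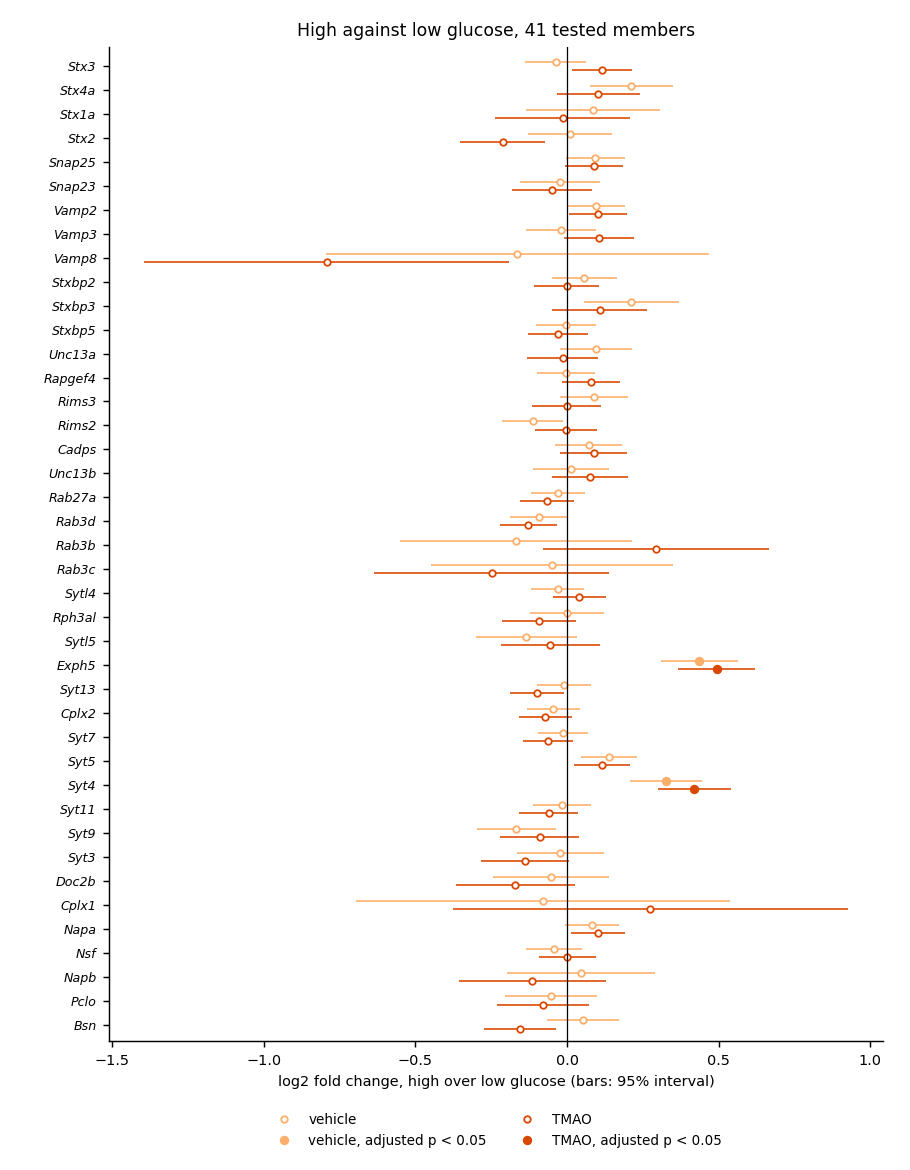
Log2 fold change of high over low glucose for the 41 tested members, in vehicle (light orange) and in TMAO (dark orange), with 95% intervals and filled points at an adjusted p under 0.05. Exph5 and Syt4 are the filled points in both treatments, at 0.44 and 0.33 in vehicle and 0.49 and 0.42 in TMAO, and Vamp8 and Cplx1 have the widest intervals.

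Some cell type markers were called between glucose levels with both treatments averaged, where 8.19% of all tested genes were called. Of 9 beta cell genes, Mafa (log2 fold change 0.54) and Iapp (0.09) were called higher in that comparison, and the others were not called. In vehicle alone only Mafa was called (0.66), and in TMAO alone no marker was. Of 5 genes of other islet endocrine cells, 3 were tested, and Gcg was called higher with both treatments averaged (0.11). The summed level of that list was 204 to 218 FPKM in low glucose with vehicle and 201 to 213 with TMAO, against 225 to 230 and 224 to 228 in high glucose. The blood pair, Ptprc and Cd68, summed to 2.88 to 3.62 and 3.87 to 4.10 FPKM in low glucose with vehicle and with TMAO, and to 4.33 to 4.84 and 4.12 to 4.30 in high glucose, all of it Cd68, which was not called. The 4 fibroblast and endothelium genes summed to at most 0.545 FPKM in any library. The part of these genes in the members' differences was not tested.

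The comparison then asked which members differed between TMAO and vehicle. None passed at either glucose level or on average. In low glucose 0 of 41 members were called by edgeR, against 0.00616% of all genes, and 0 had an unadjusted p under 0.05, against 2.20% of all genes. In high glucose 0 of 41 were called, against 0% of all genes, with 4 at an unadjusted p under 0.05 (9.76%, against 5.35% of all genes), and with both glucose levels averaged 0 of 41 against 0%, again with 4 (9.76%, against 3.62%). DESeq2 and both limma fits also called 0 members in each, with 0 to 1 members at an unadjusted p under 0.05 in low glucose, 2 to 3 in high glucose and 3 to 4 on average. These edgeR shares moved with single libraries. In high glucose the share was 2.44% (2.69% of all genes) without replicate 1 of high glucose with vehicle. Without replicate 2 of that condition it was 19.5% (7.94% of all genes). On average it ran from 4.88% to 12.2% as each library was left out. The median log2 fold change of the members was 0.01 in low glucose and -0.01 in high glucose, against 0.00 over all genes in both.

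The precision of these comparisons was set by 3 libraries a condition, with a median SE of 0.06 over members on the log2 scale. For 37 of 41 members in low glucose and 34 in high glucose, the 95% interval lay within a 1.25-fold change either way. The intervals do not show that TMAO left a member unaltered. The 5 members that differed with glucose had TMAO log2 fold changes in high glucose of 0.10 (Exph5, 95% interval -0.02 to 0.22), 0.08 (Syt4, -0.04 to 0.20), -0.04 (Syt5, -0.13 to 0.05), -0.06 (Stx4a, -0.20 to 0.07) and -0.01 (Rab3d, -0.11 to 0.08).

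**Figure D4:**
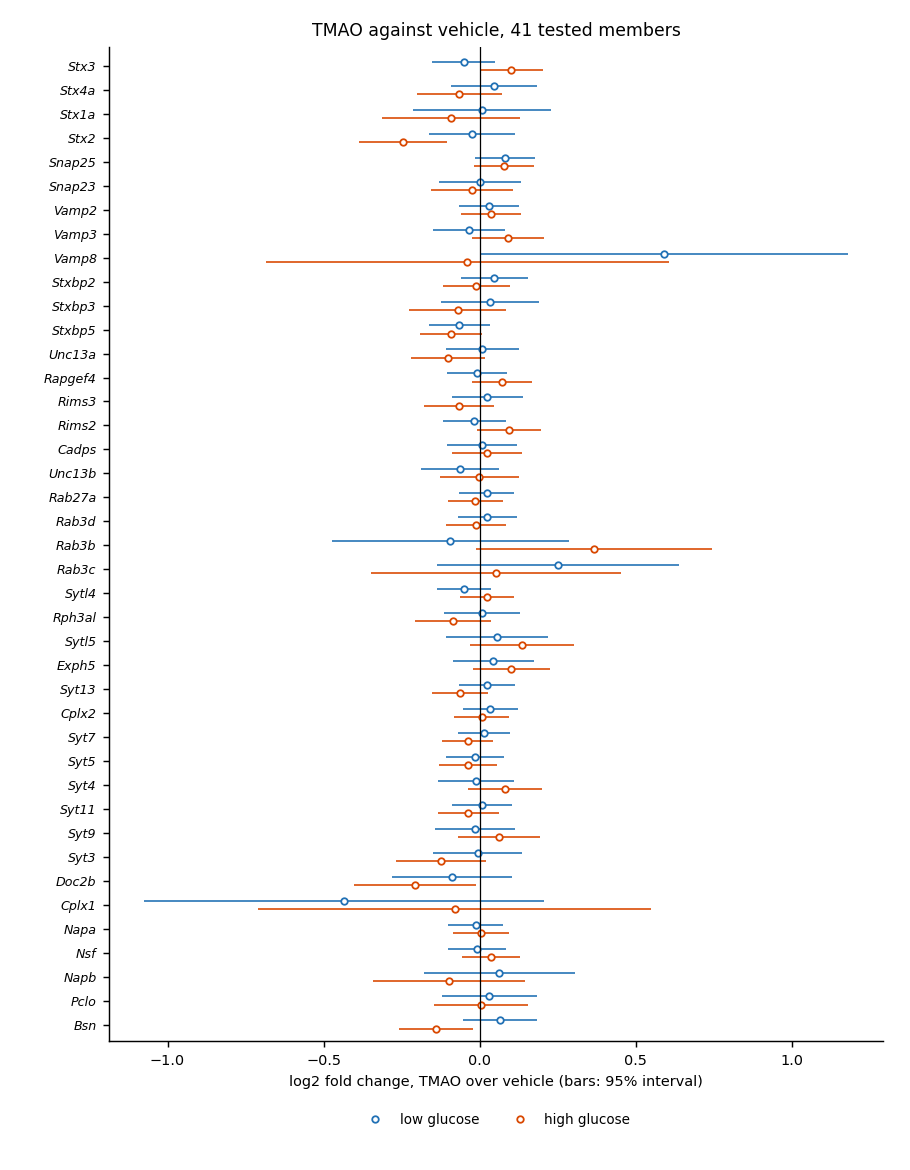
Log2 fold change of TMAO over vehicle for the 41 tested members, in low glucose (blue) and in high glucose (orange), with 95% intervals and open points throughout because none passed an adjusted p of 0.05. Stx2 in high glucose lies at -0.24 with an interval from -0.39 to -0.10, and Vamp8 in low glucose at 0.59 with an interval from 0.00 to 1.18.

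The member with the lowest p-value for TMAO in high glucose was Stx2, a plasma membrane syntaxin of broad tissue distribution. It was at 5.78, 5.71 and 5.54 FPKM in low glucose with vehicle, 5.76, 5.42 and 5.57 in low glucose with TMAO, 5.86, 5.59 and 5.66 in high glucose with vehicle, and 4.90, 4.94 and 4.58 in high glucose with TMAO. The 3 high-glucose TMAO libraries were below each of the other 9. The log2 fold change was -0.24 (SE 0.07, unadjusted p = 0.00128, adjusted p = 0.910, edgeR), which did not pass. Bsn (-0.14) and Doc2b (-0.21), both at the same adjusted p of 0.910, followed.

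In high glucose, 6 of the 41 members (14.6%) had TMAO libraries that did not overlap the vehicle libraries, against 11.2% of all tested genes. Rab3b, Rapgef4 and Rims2 had their TMAO libraries above, and Bsn, Stx2 and Stxbp5 below. In low glucose Stxbp5, below, was the single such member (2.44%, against 6.34% of all genes).

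In low glucose the lowest p-values belonged to Vamp8, Snap25 and Cplx1, none of which passed (adjusted p = 1.00 for each, edgeR). Vamp8, a VAMP of endosomes and newcomer granules, was at 1.23, 1.43 and 0.997 FPKM in low glucose with vehicle, 1.40, 1.18 and 2.93 in low glucose with TMAO, 1.06, 1.12 and 1.06 in high glucose with vehicle, and 0.797, 1.31 and 1.01 in high glucose with TMAO. Replicate 3 of low glucose with TMAO stood apart, above the 11 others. Its log2 fold change of 0.59 (SE 0.28) was 0.08 without that library. Snap25 (0.08, SE 0.05) and Cplx1 (-0.43, SE 0.31, at 12 to 39 counts per library) were the others.

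With both glucose levels averaged, Stx2 (-0.13), Snap25 (0.08) and Stxbp5 (-0.08) had the lowest p-values for TMAO and did not pass (adjusted p = 1.00 for each, edgeR). The TMAO-by-glucose interaction, the difference between the TMAO effects at the 2 glucose levels, called 0 of 41 members, against 0% of all genes, with 3 members at an unadjusted p under 0.05 (7.32%, against 3.36% of all genes) and 2 by DESeq2 and by each limma fit. Those 3 were Bsn (-0.21, SE 0.08), Stx2 (-0.22, SE 0.10) and Stx3 (0.15, SE 0.07), and none passed (adjusted p = 1.00 for each, edgeR). Bsn was at 6.36, 6.16 and 7.28 FPKM in low glucose with TMAO and at 5.77, 6.09 and 5.90 in high glucose with TMAO, and with vehicle at 6.17, 6.27 and 6.48 in low glucose and at 7.0, 6.12 and 6.48 in high glucose. Its high-glucose TMAO libraries were below the 9 others. The share of members under an unadjusted p of 0.05 for the interaction (edgeR) moved with single libraries. It was 0%, against 2.29% of all genes, without replicate 1 of high glucose with vehicle. Leaving out another library gave 2.44% to 9.76%, against 2.53% to 6.01% of all genes.

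**Figure D5:**
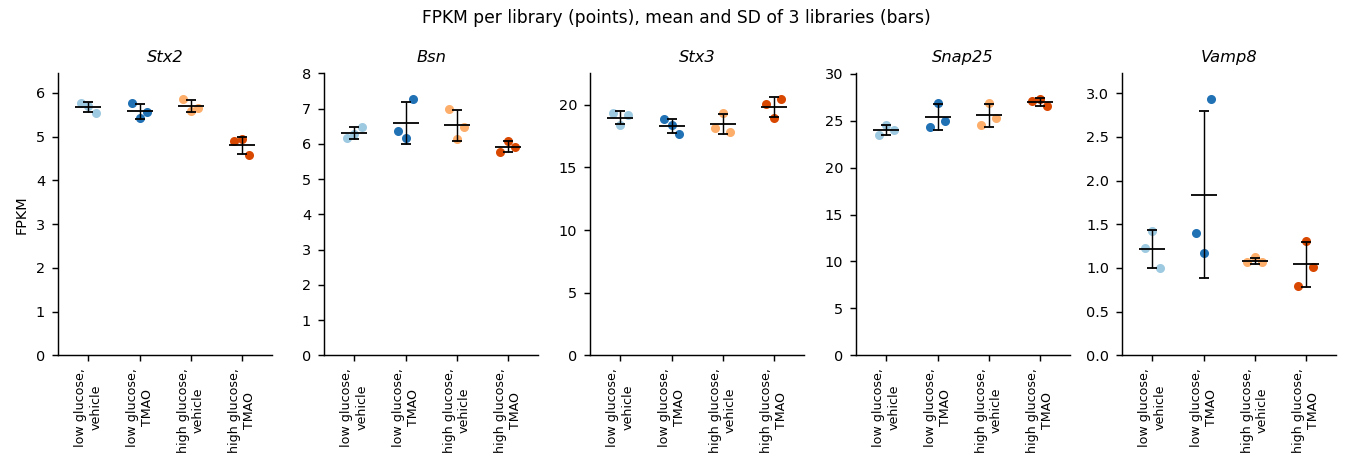
FPKM of Stx2, Bsn, Stx3, Snap25 and Vamp8, members with low p-values in a TMAO comparison or the interaction that did not pass, in each library (points) with the mean and SD of 3 libraries (bars) and the vertical axis from 0. Stx2 in high glucose with TMAO reads 4.58 to 4.94 FPKM, below its other 9 libraries, and 1 low-glucose TMAO library of Vamp8 stands apart at 2.93 FPKM.

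Other genes of the secretory route, 98 in all and 83 tested, were taken as intracellular SNAREs, the exocyst with the Ral GTPases and a Ral exchange factor that act on it, other SNARE regulators, other synaptotagmins, and Rab regulators and effectors. With both treatments averaged, 3 of 83 (3.61%) were called between high and low glucose, against 8.19% of all genes. Madd, which encodes a guanine nucleotide exchange factor for Rab3 and Rab27, rose by a log2 fold change of 0.13 (SE 0.03), and Stx16, a Golgi syntaxin, by 0.12 (SE 0.03). Exoc8, an exocyst subunit, fell by 0.24 (SE 0.05, adjusted p = 0.000923, edgeR), and also in vehicle alone, by 0.30 (adjusted p = 0.00831). The other 12 genes of its group did not pass.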

How the data were processed

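RNA of MIN6 cells under 4 conditions was sequenced, with 3 libraries per condition. The authors deposited counts of fragments per gene, without normalization, and FPKM values of the same genes, which equal count divided by length and by a library total within 0.1%. The submitters' processing notes name HISAT2 2.0.5, featureCounts 1.5.0-p3, DESeq2 1.16.1 and the mm10 build, without their roles, and strand use in counting is not given in the sources used here. Groups and replicate numbers came from the sample labels. The 16.8 mM of high glucose came from a supplementary figure legend on these RNA data. The 2.8 mM of low glucose came from a supplementary legend on protein levels in the same cell line.

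Counts were fitted in R 4.3.3 with edgeR 4.0.16 (filterByExpr by condition, TMM normalization, robust quasi-likelihood F test, 12 libraries in 1 model of the 4 condition means). Adjusted p-values are Benjamini-Hochberg values over all 16222 tested genes, called under 0.05. P-values measure the spread between libraries. Steps were tested on simulated data. The same comparisons were rerun with size factors from DESeq2 1.42.0 and with its own Wald test, without the filter, with a minimum of 10 counts per library, on the 2 compared conditions alone, with a block for replicate number, and leaving out each library. FPKM values, after adding 1 or 0.1 and taking log2, were tested with limma 3.58.1, whose fold changes understate those of low genes.

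The members and lists were chosen with earlier results of these data known. Members called in any comparison, and the most abundant member of each role, are given in every library. Where fewer than 3 members were called, the 3 with the lowest p-values are named. Syt9 under the block, the members whose TMAO and vehicle libraries did not overlap, and the called cell type markers were named after their values were seen. Of the related genes, those called with both treatments averaged are named. Replicate libraries of a condition differed beyond sampling noise, with a median chi-square per gene 1.80 to 3.55 times that of repeated draws from 1 library. Figures used matplotlib 3.10.9 in Python 3.11.15.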

Additional observations from a re-analysis of the deposited data

How the results depend on the processing

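Exph5 and Syt4 were called in all 3 glucose comparisons under every alternative, 19 with treatments averaged and 20 within each treatment, with log2 fold changes of 0.38 to 0.50 and 0.34 to 0.41 on average, and Syt5 was called on average under all 19 (adjusted p from 0.00262 to 0.0343, edgeR, DESeq2 or limma). The count of members called between glucose levels, averaged, went from 5 to between 3 and 7 when a library was left out. It was 3, with Stx4a and Rab3d lost, without low glucose, vehicle replicate 1 or 2 or without low glucose, TMAO replicate 1. Each comparison of TMAO and the interaction called 0 members under all alternatives.

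With the replicate number as a block, 9 members were called on average (22%, against 10.3% of all genes), the added ones being Napa (adjusted p = 0.0345, edgeR), Snap25 (0.0323), Vamp2 (0.0414) and Syt9. In vehicle 3 were called (7.32% against 4.42%), with Syt5 added (adjusted p = 0.0421, edgeR). In TMAO 2 were called (4.88% against 4.83%), and in the TMAO comparisons and the interaction 0 were. Same-numbered libraries are not shown to be paired: the correlations of their deviations ran from -0.04 to 0.21, with 2 of 18 above 0.1.

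Values near 0 changed sign. Sytl4, averaged over treatments, was -0.0025 with no filter on low counts, and from -0.0059 to 0.017 as each library was left out, below 0 in 5 of these. Rab3d, TMAO in high glucose, ran from -0.053 to 0.016, above 0 in 3 of these. The cause was not tested. Low counts (Cplx1, Rab3b, Rab3c) limit precision. Vamp8 had low counts too, and its biological coefficient of variation was 21.5%, against 11.6% for Rab3b and for Rab3c, with replicate 3 of low glucose with TMAO apart. Rab3a, Rab27b, Myrip, Rims1 and Cadps2 were not tested.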
